A study of Mus musculus with 10 samples.

Results

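Cytosolic ribosomal protein genes were followed through B cell activation in culture and through loss of the RNA-binding protein Pcbp1. The genes were taken by name. They were Rplp0, Rplp1, Rplp2, Rpsa and every Rpl or Rps symbol followed by a number, alone or with the suffix a, l, x, al or l1. Pseudogene rows with a -ps suffix and ribosomal protein kinases were not taken. Of 55492 symbols in the count table, 87 matched and 85 had at least 10 counts in at least 2 of the 10 libraries. Rps12l1 and Rpl10l did not. The 85 genes comprised 53 of the large subunit and 32 of the small subunit, counting the like-named relatives, and lay on 19 chromosomes. All 85 passed the filter on low counts that preceded the tests.

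The 4 groups were naive WT (2 libraries) and naive KO (2), which are primary B cells of the mouse spleen on day 0, and iGCB WT (3) and iGCB KO (3) on day 4. The iGCB cells are induced germinal center B cells, which come from such B cells cultured with 40-LB cells, a fibroblast feeder that presents CD40 ligand and BAFF. KO cells came from mice with floxed Pcbp1 alleles (Pcbp1 fl/fl) and Mb1-Cre, a Cre recombinase driven from the Cd79a locus in B cells. The labels do not say whether WT mice carried Cre, nor the strain or age, nor whether the libraries come from different animals. The p-values thus cover the spread between these libraries only.

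Each ribosomal subunit is built from ribosomal RNA and one copy of most of its proteins, and the proteins are needed in matched amounts. Ribosomal protein genes are widely expressed at high levels, and their mRNAs begin with a C followed by an unbroken run of pyrimidines, the terminal oligopyrimidine (TOP) tract, through which mTORC1 and the RNA-binding protein Larp1 control their translation. Resting B cells are small and translate little, and activated germinal center B cells grow and divide quickly. Pcbp1 binds cytosine-rich RNA, and the study asked about its role in B cell development and function.

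Libraries held 33400672 to 63576147 counts. Pcbp1 itself went from 118 ± 48.5 CPM (SD, n = 2) in naive WT to 2.39 ± 2.75 CPM (n = 2) in naive KO, and from 267 ± 103 CPM (n = 3) to 2.75 ± 0.884 CPM (n = 3) in iGCB cells. Levels are in CPM, counts scaled to the TMM-corrected library total. The summed level of 8 B cell markers was 17763 to 23639 CPM in naive libraries and 8617 to 11768 CPM in iGCB libraries, and that of 8 fibroblast markers was 3.07 to 22.5 CPM in naive and 324 to 452 CPM in iGCB libraries. Markers of other cells summed to 52.3 to 303 (9 myeloid), 50.3 to 109.6 (8 T and NK cell) and 26.3 to 217 CPM (6 erythroid) in naive libraries, and to 45.1 to 87.4, 19.1 to 70.3 and 0.306 to 2.33 CPM in iGCB libraries. No marker was at 0 in every library. By Xist and the Y-linked genes, the first naive library of each genotype was female and the remaining 8 libraries were male. In naive cells the sex and the library number therefore cannot be told apart.

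The 85 genes gave 2.44 times as large a mean share of all counts in iGCB as in naive WT cells, and 2.91 times in KO cells. Their share was 3.65% and 2.41% in the naive WT libraries and 3.56% and 2.65% in naive KO. In iGCB cells it was 6.22%, 6.81% and 9.18% (WT) and 8.52%, 10.4% and 8.24% (KO). Every iGCB library lay above every naive library, while the WT and KO ranges overlapped at each stage. Outside the mitochondrial genome and the immunoglobulin genes the group means were 3.21% ± 0.949 (naive WT), 3.30% ± 0.702 (naive KO), 7.89% ± 1.60 (iGCB WT) and 9.59% ± 1.20 (iGCB KO).

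**Figure D1:**
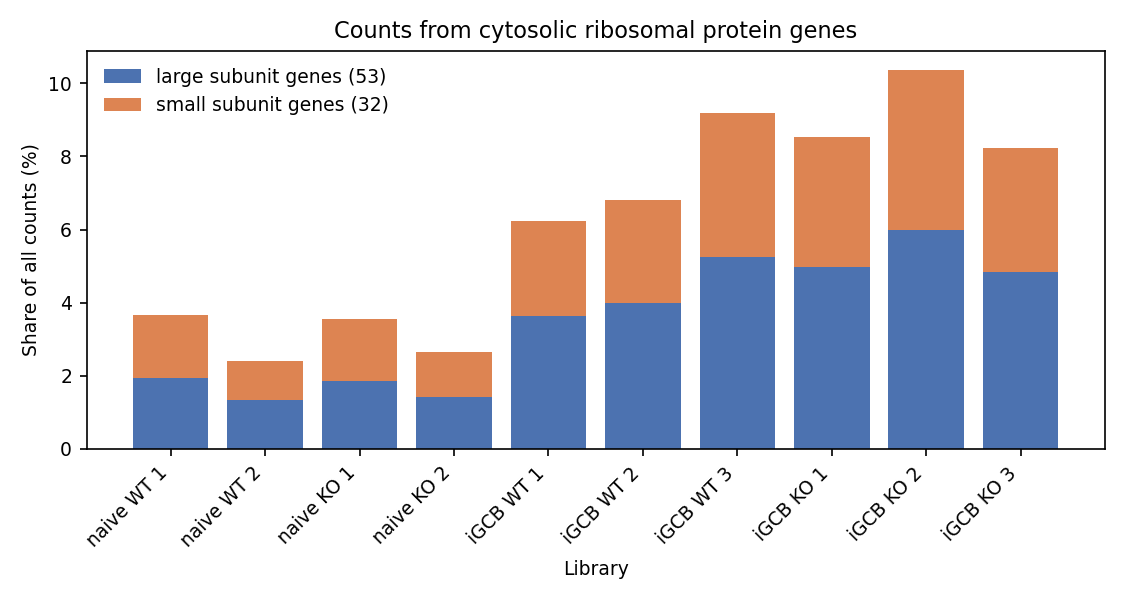
Share of all counts (y axis, percent) that fell on large subunit genes (blue) and small subunit genes (orange) in each of the 10 libraries (x axis), stacked. The naive libraries reach 2.41% to 3.65% and the iGCB libraries 6.22% to 10.4%, with iGCB WT 3 at 9.18% above the other 2 iGCB WT libraries.

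Single libraries stood apart across the whole set. iGCB WT 3 exceeded the mean of iGCB WT 1 and 2 by a median of 0.57 on the log2 CPM scale over the 77 abundant members, and 75 of 77 were above 0. The excess was greater for short genes, 0.80 for the 27 with a coding length under 400 nt against 0.51 for the other 50, and its correlation with log2 coding length was -0.48 across genes. Rps29 had the highest excess, 1.46. In the same library the median excess was 0.68 for 36 subunits of respiratory complex I, 0.40 for 76 mitochondrial ribosomal proteins, 0.21 for 385 short protein-coding genes (merged exons under 1000 nt) and 0.00 for all genes. iGCB KO 2 exceeded KO 1 and 3 by 0.36, with 77 of 77 above 0, by 0.39 for the 27 shorter and 0.33 for the 50 longer genes, and with a correlation of -0.45 with log2 coding length. Its median excess was 0.38 for the complex I, 0.24 for the mitochondrial ribosomal protein and 0.18 for the short protein-coding genes. Naive WT 1 exceeded naive WT 2 by 0.61 and naive KO 1 exceeded naive KO 2 by 0.44. Rps26 had the highest excess in the WT pair, 1.90. The part of these libraries in the KO comparisons was not tested beyond leaving each out.

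**Figure D2:**
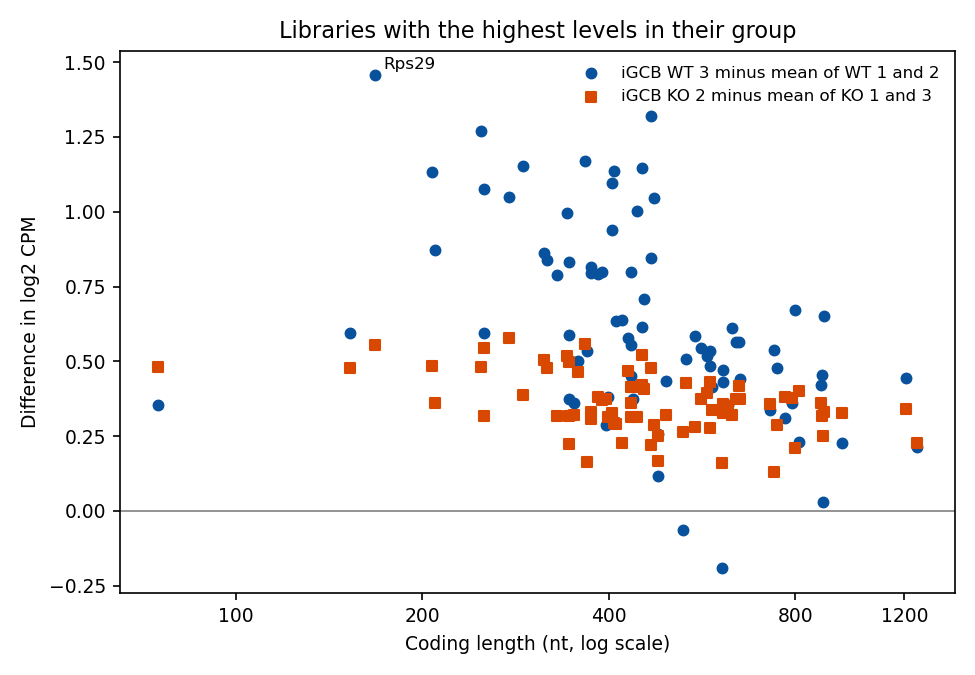
Difference in log2 CPM (y axis) between the iGCB library with the highest ribosomal protein levels in its group and the mean of the other 2, against coding length (x axis, nt, log scale), for 77 genes. iGCB WT 3 (blue circles) reaches 1.46 (Rps29) among short genes, and iGCB KO 2 (orange squares) runs between 0.13 and 0.58.

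Large subunit genes made up 54.4% ± 1.56 (SD, n = 2) of the ribosomal protein counts of naive WT and 52.9% ± 0.977 (n = 2) of naive KO cells, against 58.1% ± 0.723 (n = 3) in iGCB WT and 58.2% ± 0.485 (n = 3) in iGCB KO. The iGCB range, 57.3% to 58.7%, lay above the naive range of 52.2% to 55.5%. On the log2 CPM scale, in which each gene weighs the same, the mean over large subunit genes was lower than that over small subunit genes by 0.89 ± 0.09 (WT) and 0.91 ± 0.04 (KO) in naive cells and by 0.82 ± 0.07 (WT) and 0.84 ± 0.03 (KO) in iGCB cells. The 77 genes with a mean of at least 32 CPM over all libraries, 47 large and 30 small, had a smaller gap, 0.27 to 0.30 in the 4 groups. The 8 genes under that level were the like-named relatives Rpl3l, Rpl39l, Rpl36al, Rpl32l, Rpl6l and Rps4l, and Rps10 and Rpl24. Exons of Gm15420 and RPS10-NUDT3 overlap 28.7% of the Rps10 exon length, 20.6% on the same strand. The 4 rows named as Rps10 pseudogenes held 152% of the counts of Rps10 itself, so its few counts may not give its level.

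Levels of different genes were compared per kilobase of the principal annotated transcript. In naive WT cells the 77 genes spanned 20.2 to 2193 CPM per kb. The 3 highest were Rps26, a protein at the mRNA exit channel (2193 ± 1793 CPM per kb, SD, n = 2), Rps15 (1504 ± 595) and Rpsa, also known as the laminin receptor (1418 ± 455). With SDs of 455 to 1793 these neighbours in the order did not differ beyond their spread. With merged exons as the length, 3 of the 4 highest members remained among the 4 highest. The lowest of all 85 were Rpl3l, Rpl39l, Rpl32l and Rpl6l, each under 1 CPM per kb in naive WT. Rps15a and Rps20 have annotated transcripts of 5130 and 3706 nt for coding lengths of 390 and 357 nt, so their levels per kb are uncertain.

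Levels were more even in iGCB cells. The SD of log2 CPM per kb across the 77 genes was 1.45 in naive WT and 1.44 in naive KO, against 1.09 in iGCB WT and 1.12 in iGCB KO. The ratio of the upper to the lower quartile was 3.15 and 3.23 in naive cells and 2.15 and 2.17 in iGCB cells. Rps15 (from 1504 ± 595 to 2691 ± 933 CPM per kb) and Rpl32 (from 648 ± 416 to 2456 ± 999) stood highest in iGCB WT.

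The comparison of iGCB with naive cells asked how the genes differ between resting B cells and cells on day 4 of culture. Most members of both subunits were higher in iGCB cells, by a median of 3.25-fold, and 13 of the 77 abundant members differed by less than 1.5-fold. In WT cells 65 of 85 genes rose, 2 fell and 18 did not pass the threshold (edgeR quasi-likelihood test, Benjamini-Hochberg adjusted p under 0.05 over 21010 genes). Over all genes tested 24.7% were higher and 31.7% lower, with a median log2 fold change of -0.25. The members' median was 1.70, with 41 of 53 large subunit genes (median 1.70) and 24 of 32 small subunit genes (median 1.72) higher. In KO cells 69 of 85 rose and 0 fell, against 24.8% higher and 31.4% lower over all genes, and the median was 2.08. The stages did not overlap for 67 members higher and 2 lower in WT, against 32.2% and 40.2% of all genes, and for 77 higher and 2 lower in KO, against 34.2% and 41.3%. By subunit the calls in KO were 44 of 53 large (median 2.08) and 25 of 32 small (median 2.10). In such bulk libraries fewer cells of a type and less RNA per cell cannot be told apart, and the values are relative to all mRNA counted. Reads that match a processed copy as well as a member could be lost or split. The table holds 318 rows named as pseudogenes of 63 members, which took 0.0162% to 0.0588% of the counts of a library, and how the authors treated reads with several matches is not given in the sources used here.

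All iGCB libraries were from males, so the stage contrast was also read without the female naive library. Without naive WT 1 the median in WT cells was 2.03, with 72 members higher, and a sex term gave 2.04 and, in KO cells, 2.43. Without iGCB WT 3 the WT median was 1.48, with 62 members higher. The summed fibroblast markers given above moved with the stage, and their part in the result was not tested.

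The largest increases among abundant members were those of Rps29 and Rpl23a. Rps29 (ENSMUSG00000034892.8, mm10 chromosome 12, 69157722 to 69159186, minus strand), a zinc-binding protein of the small subunit, had 40.8 and 24.5 CPM in WT and 37.2 and 21.3 CPM in KO naive cells, and 299, 311 and 837 CPM in WT and 416, 582 and 378 CPM in KO iGCB cells. All 6 iGCB libraries lay far above the 4 naive ones, and iGCB WT 3 was the highest. The log2 fold change was 3.89 (adjusted p = 0.000137, SE 0.52) in WT and 3.97 (adjusted p = 0.000129, SE 0.53) in KO, and 3.23 in WT without iGCB WT 3. Rpl23a (ENSMUSG00000058546.8, mm10 chromosome 11, 78180932 to 78183584, minus strand), which lines the end of the nascent-chain exit tunnel, had 51.6 and 16.7 CPM in WT and 45.2 and 22.2 CPM in KO naive cells, and 328, 316 and 803 CPM in WT and 436, 501 and 425 CPM in KO iGCB cells. The stages did not overlap, and iGCB WT 3 again stood above the other 2 iGCB WT libraries. Its log2 fold change was 3.82 (adjusted p = 0.000336, SE 0.59) in WT and 3.75 (adjusted p = 0.000379, SE 0.59) in KO. The WT value was 4.85 without naive WT 1 and 3.22 without naive WT 2, and the KO value was 4.37 without naive KO 1, all past the threshold. Exons of Tlcd1 and Snord42b overlap 62.3% of the Rpl23a exon length, mostly on the other strand, and the strand setting of the counting is not given in the sources used here.

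Rps20, a protein of the small subunit head, had 125 and 137 CPM in WT and 118 and 133 CPM in KO naive cells, and 860.4, 929 and 1266 CPM in WT and 1289.5, 1710.0 and 1194 CPM in KO iGCB cells. Its naive libraries differed little and its stages were well apart, with a log2 fold change of 2.96 (adjusted p = 5.19e-06, SE 0.24) in WT and 3.48 (adjusted p = 2.59e-06, SE 0.25) in KO. Rpl5 (ENSMUSG00000058558.12, mm10 chromosome 5, 107900502 to 107909005, plus strand), which carries 5S ribosomal RNA into the large subunit and, with Rpl11, can bind the p53 regulator Mdm2, had 145 and 131 CPM in WT and 140.3 and 121 CPM in KO naive cells, and 784, 908 and 1325 CPM in WT and 1105, 1400.5 and 1120.2 CPM in KO iGCB cells. Exons of Fam69a and Snord21 overlap 26.7% of the Rpl5 exon length, 2.4% on the same strand. Rpl5 rose by 2.86 in WT and 3.21 in KO on the log2 scale (adjusted p = 8.8e-06 and 5.04e-06). Rpl11 rose less, by 1.70 (adjusted p = 0.000618, SE 0.29) in WT and 2.24 (adjusted p = 0.000128, SE 0.30) in KO. The stalk proteins that recruit translation factors also rose in WT, Rplp0 by 2.42, Rplp1 by 2.90 and Rplp2 by 1.64 on the log2 scale, and in KO by 2.43, 3.07 and 2.35. Rplp0 had 653 and 582 CPM in WT and 876 and 648 CPM in KO naive cells, and 3019.6, 3225 and 3656 CPM in WT and 4074, 4738 and 3504 CPM in KO iGCB cells, and its stages did not overlap.

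Rps27a, made as a fusion with ubiquitin, had 163 and 139 CPM in WT and 135 and 109.5 CPM in KO naive cells, and 776, 859 and 1467 CPM in WT and 1054, 1386 and 942 CPM in KO iGCB cells, with no overlap between stages and a log2 fold change of 2.77 (adjusted p = 3.81e-05, SE 0.31) in WT. The 8 largest increases in WT were those of Rps29, Rpl23a, Rps20, Rpl5, Rplp1, Rps13, Rpl27 and Rpl32l. Rps13 of the small subunit rose by 2.86 and Rpl27 of the large subunit by 2.92, and Rpl32l was at a very low level. Among members with known roles, Rpl3, near the peptidyl transferase center, rose by 2.01 in WT and 2.30 in KO. Rps19, mutated in human Diamond-Blackfan anemia, rose by 2.03 and 2.50. Rps14, haploinsufficient in the human 5q- syndrome, rose by 0.90 and 0.91, with adjusted p-values of 0.042 and 0.0403, close to the threshold. Rps6, the substrate of the S6 kinases downstream of mTORC1, rose by 1.07 and 1.74.

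**Figure D3:**
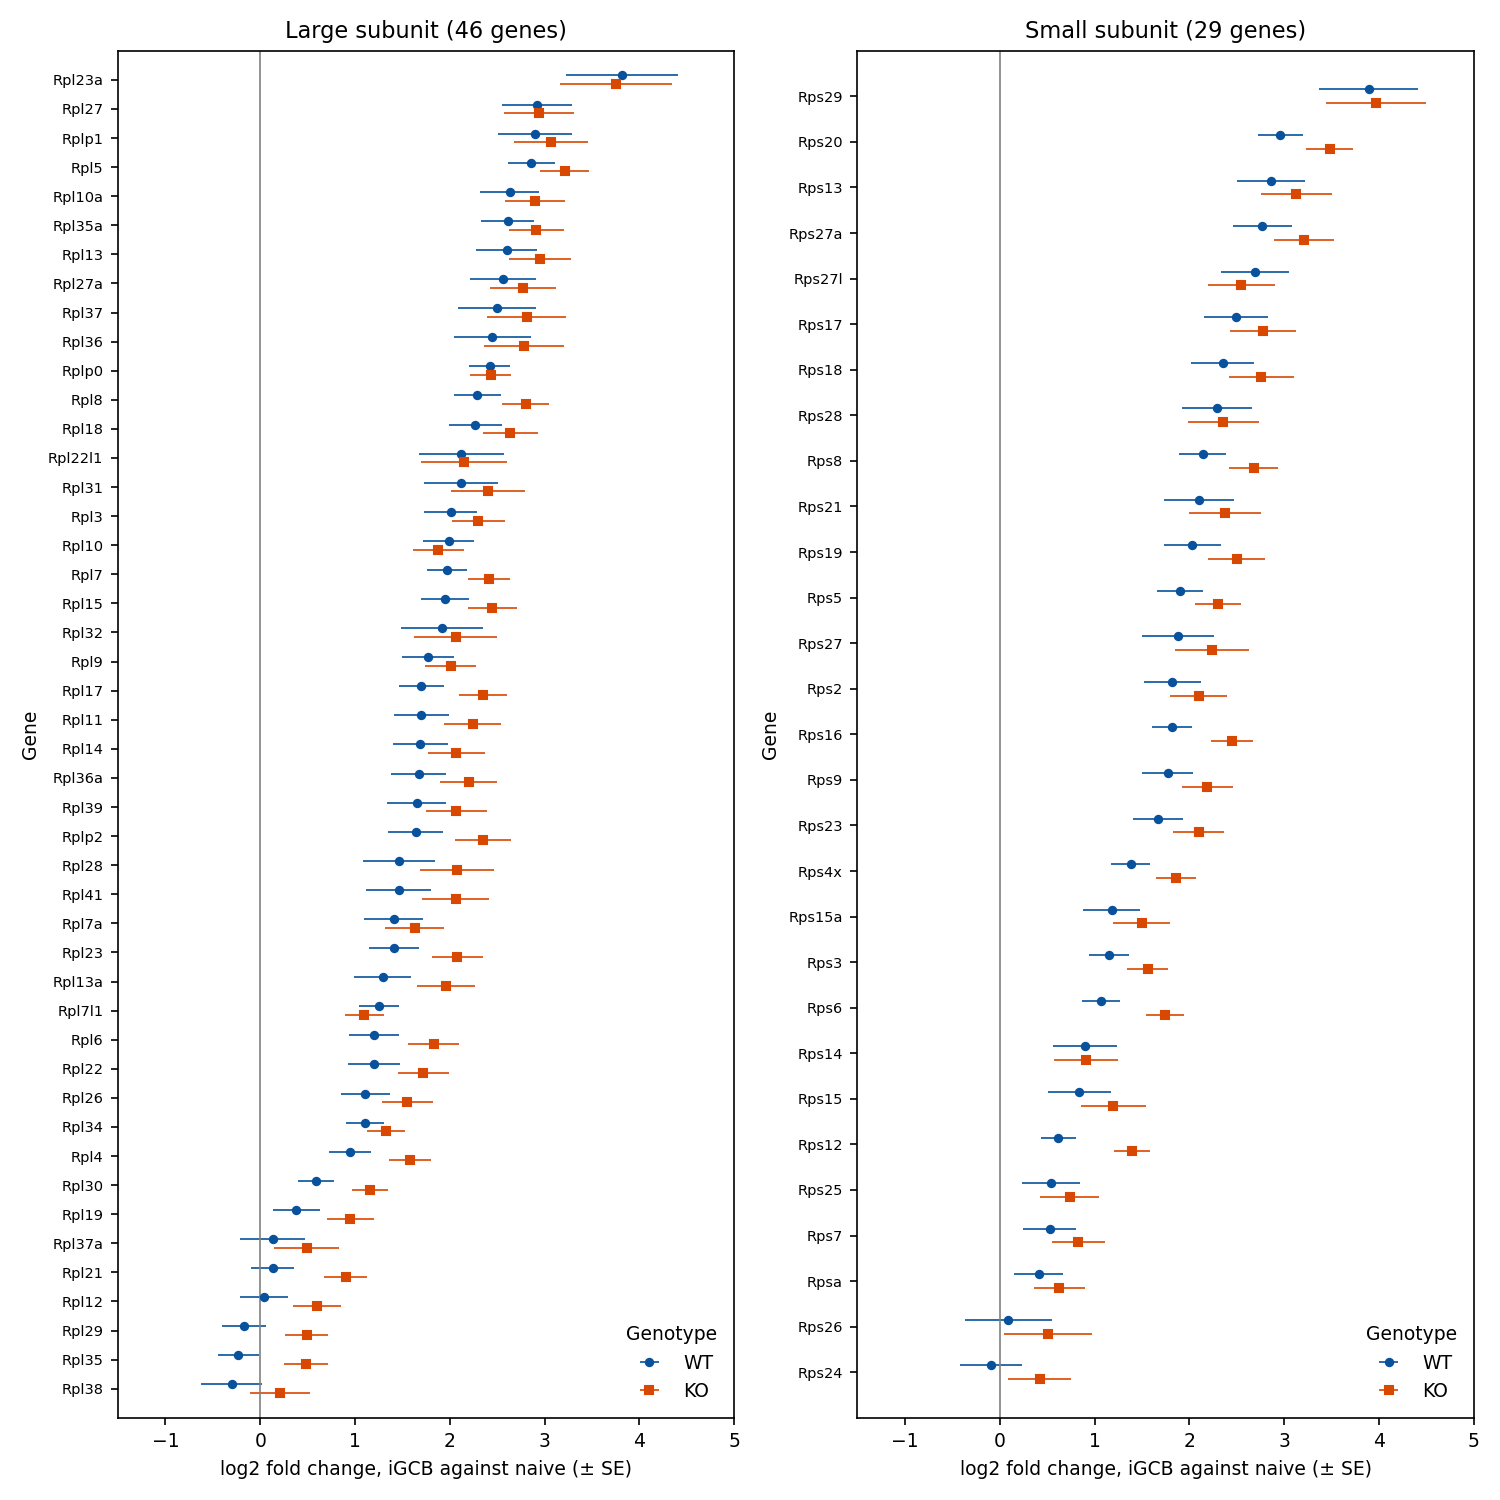
Log2 fold change of iGCB against naive cells (x axis, bars show SE) for 75 members with a mean of at least 32 CPM (y axis, sorted by the WT value), in WT (blue circles) and KO (orange squares) cells. Large subunit genes are on the left and small subunit genes on the right. Both subunits run from values near 0 (Rpl38 -0.30 in WT, Rps24 -0.09) to nearly 4 (Rpl23a 3.82, Rps29 3.89), and WT and KO follow a like order.

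The order of the members was alike in both genotypes. Across the 77 abundant genes, the WT and the KO stage changes, which share no library, correlated at r = 0.97, and across all 85 members at 0.89. Stage changes in WT correlated at -0.69 with the log2 CPM in naive KO cells, and those in KO at -0.64 with the log2 CPM in naive WT cells, again with no library shared. Across all 85 members the latter values were weaker, -0.36 and -0.12, and the choice of the 77 by their mean over all libraries uses both stages. These values are across genes, which are not independent replicates, and gene length and read mapping are common to both axes.

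Of the 18 members not called in WT, 13 were abundant. The 3 described first were chosen after their values were seen. Rps24, a small subunit protein, had 2726 and 1148 CPM in WT and 2204 and 1413 CPM in KO naive cells, and 1562, 1748 and 2151 CPM in WT and 2197, 2785 and 2282 CPM in KO iGCB cells. Naive WT 1 was the highest WT library and naive WT 2 the lowest, so the stages overlapped, and the log2 fold change was -0.09 (adjusted p = 0.828, SE 0.33) in WT and 0.42 (adjusted p = 0.293, SE 0.33) in KO. Rpl38, linked in mice to translation of Hox mRNAs, had 383 and 211 CPM in WT and 281 and 205 CPM in KO naive cells, and 169, 212 and 346 CPM in WT and 256, 329 and 257 CPM in KO iGCB cells, with overlapping stages and -0.30 (adjusted p = 0.442, SE 0.32) in WT. Rpl35 (588 and 419.8 CPM in WT and 453 and 366 CPM in KO naive cells, and 339, 411 and 541 CPM in WT and 524, 615 and 575 CPM in KO iGCB cells) gave -0.23 (adjusted p = 0.395, SE 0.22) in WT and 0.48 (adjusted p = 0.0884, SE 0.23) in KO. Exons of Arpc5l and Wdr38 overlap 66.2% of its exon length on the other strand. Rps26, Rpl12, Rpl29, Rpl21, Rpl37a, Rpl19, Rpsa, Rps7 and Rps25 were also abundant and not called in WT, with log2 fold changes from -0.17 (Rpl29) to 0.54 (Rps25).

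Of the 2 genes that fell in WT, Rpl24 was at 1.6 and 4.03 CPM in naive WT and 0.788, 1.03 and 0.518 in iGCB WT, a log2 fold change of -1.85 (adjusted p = 0.0265, SE 0.63). Without naive WT 2 it was -1.05 (adjusted p = 0.262), without iGCB WT 1 -1.86 (adjusted p = 0.0627) and without iGCB WT 3 -1.63 (adjusted p = 0.0833). Exons of Gm28037, a gene on the same strand, overlap 47% of the Rpl24 exon length, so its few counts may not give its level.

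**Figure D4:**
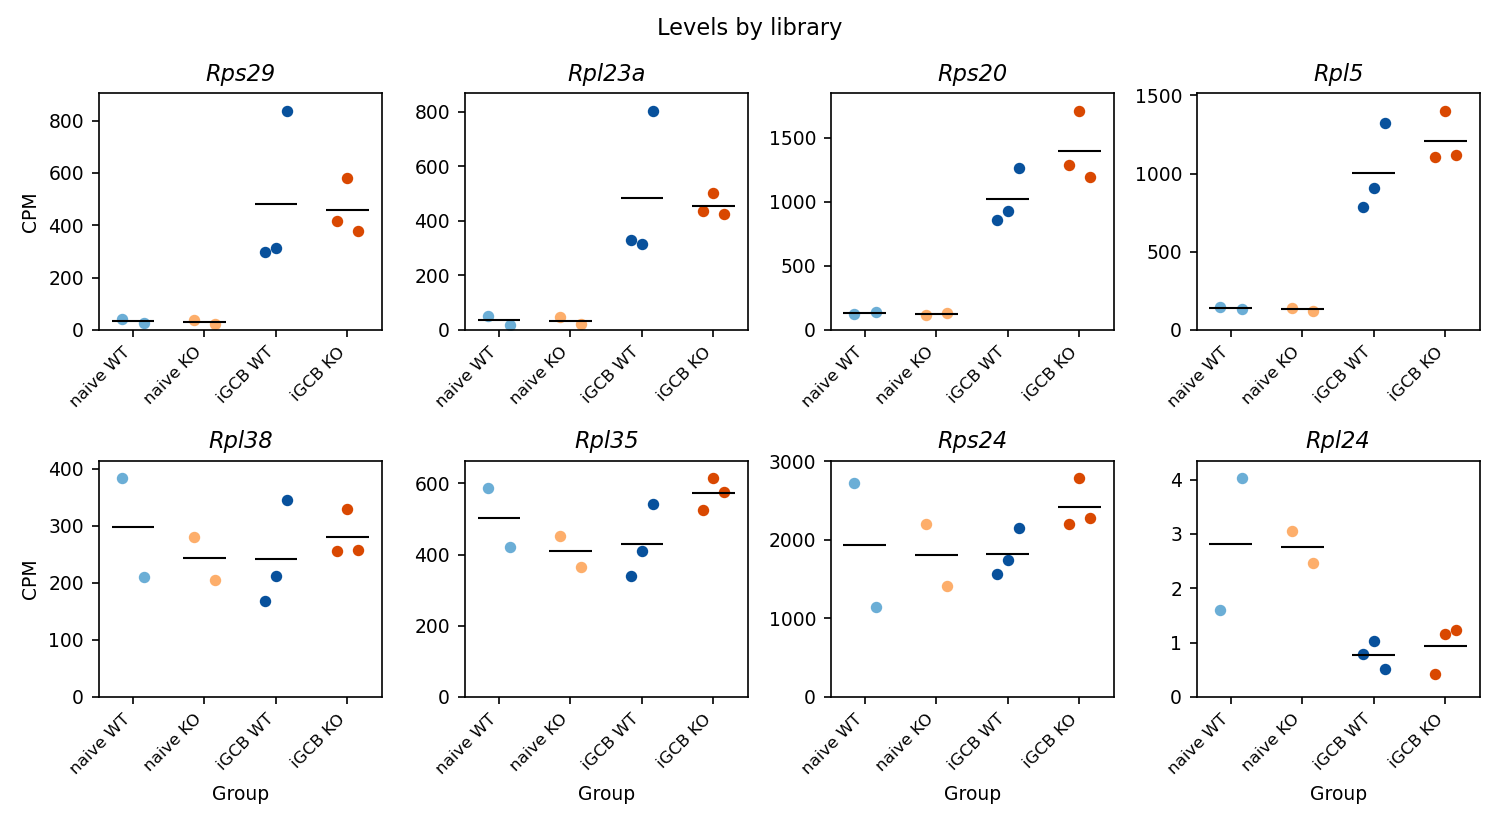
Levels (y axis, CPM, linear from 0) of 8 members in each library, by group (x axis). Points are libraries and the line is the group mean. The upper row shows 4 members that rose, with every iGCB library above every naive one, and the lower row 4 that did not, among them Rpl24 at 0.518 to 1.03 CPM in iGCB WT.

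Sequences at the annotated starts were compared because most members rose and ribosomal protein mRNAs are known for the TOP tract. RefSeq promoter entries (GRCm38.p6, 250 bases before to 50 after the start) existed for 63 of the 85 genes. A run of at least 8 letters, each C or T, on the gene's own strand and within 50 bases of the start, was found for 54 of the 63 (85.7%) and for 39.3% of all 27025 genes with an entry. It was found for 41 of 48 members that rose in WT (85.4%) and for 13 of 15 that did not (86.7%). The motif CCGGAAG, a sequence bound by ETS factors, was matched exactly on both strands over the whole window. It was found for 25 of 63 (39.7%) and for 9.93% of all genes. It was in 16 of 48 members that rose and 9 of 15 that did not. On the other strand this motif reads CTTCCGG, whose first 5 letters can be part of a pyrimidine run. The windows below show the longest run of the 4 abundant members with the largest and the 4 with the smallest WT change among those with such a run, with the run in capitals.

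Rpl27 (chr11:101442194-101442223, plus strand): tcatcctcgCTCCTCCCTCCacacgccgga
Rpl5 (chr5:107900498-107900527, plus strand): cctacagccaCTCTTTCTCacgtcgcttgc
Rps27l (chr9:66946054-66946083, plus strand): cccgcctccaCTCCTCTCCactcctccccg
Rpl10a (chr17:28328572-28328601, plus strand): aagcgctctgCCTTCTTTCCggtttccgcg
Rpl38 (chr11:114668568-114668597, plus strand): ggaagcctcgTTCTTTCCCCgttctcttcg
Rpl35 (chr2:39005115-39005144, minus strand): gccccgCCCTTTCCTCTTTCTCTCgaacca
Rps24 (chr14:24490711-24490740, plus strand): agcggTCCTCTTTTCCTCCTCTCCagctcc
Rpl12 (chr2:32961732-32961761, plus strand): ggaggaggcaacggtgcaaCTTTCTTCggt

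The first 4 had WT stage changes of 2.92, 2.86, 2.69 and 2.63 and runs of 11, 9, 9 and 10 letters. The last 4 had changes of -0.30, -0.23, -0.09 and 0.04 and runs of 10, 18, 19 and 8 letters. The run began 2 bases before the annotated start in Rpl38 and 7 before it in Rpl35, and 17 to 42 bases away from it in the other 6. Whether a run lies in the mRNA depends on the start used in these cells, which the counts do not give.

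KO cells were compared with WT cells at each stage, to see whether these genes differ with loss of Pcbp1. Cd79a, whose locus drives the Cre, was itself lower in KO cells by edgeR. Its log2 fold change was -1.60 (adjusted p = 0.0126, SE 0.18) in naive and -1.03 (adjusted p = 0.00794, SE 0.15) in iGCB cells. It was the only 1 of the 8 B cell markers to pass the threshold at either stage. The part of the Cre or its locus in the KO comparisons was not tested. In naive cells 0 of 85 genes passed the threshold, and 0 had an unadjusted p under 0.05 in edgeR, against 5.55% of all genes. DESeq2 also called 0, against 0.509% of all genes higher and 0.305% lower. By edgeR 0.0143% of all genes were higher and 0.0333% lower. The members' median log2 fold change was -0.11, against -0.05 for all genes, with 71 of 85 below 0. The WT and KO libraries did not overlap for 11 members, all lower in KO, against 12.7% of all genes lower and 11.5% higher. The median depended on the libraries: without naive WT 1 it was 0.21, and without naive WT 2 it was -0.41. Within the female pair the median difference over the 77 abundant members was -0.23 and within the male pair -0.04.

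Those with the smallest p were Rpl23, at 623 and 414 CPM in WT and 418 and 342 in KO (-0.45 (adjusted p = 1, SE 0.27)), and Rps6, at 337 and 348 and 277 and 265 (-0.34 (adjusted p = 1, SE 0.21)). The Rps6 groups did not overlap and the Rpl23 groups did. On the higher side Rplp0 had 653 and 582 CPM in WT and 876 and 648 in KO (0.30 (adjusted p = 1, SE 0.22)), with the KO 2 library inside the WT range. Rpl17 and Rps14 gave -0.33 (adjusted p = 1, SE 0.25) and 0.17 (adjusted p = 1, SE 0.36). Rps4l, Rpl3l and Rpl39l, the others taken by the same rule, were each under 3 CPM in every library.

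In iGCB cells 0 of 85 genes passed the threshold by edgeR, against 0.343% of all genes higher and 0.923% lower. An unadjusted p under 0.05 was found for 8 of 85 members, against 9.76% of all genes. All 8 were higher in KO, against 4.39% of all genes higher and 5.37% lower. DESeq2 called 3 members higher, among them Rps12 and Rpl30, against 1.53% of all genes higher and 2.43% lower. The median log2 fold change was 0.25 (large 0.26, small 0.25), against 0.00 for all genes, and 72 of 85 were above 0. The groups did not overlap for 10 members higher in KO and 1 lower, against 10.2% and 10.3% of all genes. Without iGCB WT 3 the median was 0.51, without iGCB WT 1 it was 0.11 and without iGCB KO 2 it was 0.11. T and NK cell markers summed to 19.1 to 26.7 CPM in iGCB WT and 61.9 to 70.3 CPM in iGCB KO. Of these 8 markers 3 were above 0 and 5 below 0 in KO against WT (median -0.07), and 1 passed the threshold, Lck at 1.60 (adjusted p = 0.00673, SE 0.22). Their part in the values was not tested.

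Rps12 (ENSMUSG00000061983.7, mm10 chromosome 10, 23785183 to 23787275, minus strand) had 804, 924 and 1052 CPM in WT libraries at this stage and 1301, 1671 and 1277 CPM in KO libraries. All 3 KO libraries lay above the WT ones, and the log2 fold change was 0.61 (adjusted p = 0.126, SE 0.16) by edgeR and 0.60 (adjusted p = 0.00454) by DESeq2. Exons of Gm23130, Snora33 and Snord100 overlap 13.7% of the Rps12 exon length, on the same strand. Rpl30 had 269, 309 and 373 and 408, 502 and 453 CPM (0.52 (adjusted p = 0.234, SE 0.16)), and Rpl21 had 638, 733 and 817 and 955, 1178 and 1025 CPM (0.53 (adjusted p = 0.39, SE 0.20)). In each of these 3 genes KO 2 was the highest iGCB library. On the lower side Rpl36al had 4.06, 2.45 and 4.61 CPM in WT and 2, 2.05 and 1.97 in KO (-0.89 (adjusted p = 0.636, SE 0.50)), with the groups apart at a very low level. Rpl3l, Rps4l and Rpl32l were under 6 CPM in every library, with log2 fold changes of -1.61, -0.76 and -0.57.

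The KO effect was then compared between stages. For 0 of 85 members did the difference pass the threshold, against 0.0143% of all genes above and 0.019% below 0. An unadjusted p under 0.05 was found for 7 members, all above 0, against 6.06% of all genes in either direction and 2.85% above 0. DESeq2 called 0, against 0.343% of all genes above and 0.809% below 0. The median difference, iGCB minus naive, was 0.38, against 0.04 for all genes, and 0.05 without naive WT 1. Rps12 had the smallest p, with a difference of 0.78 (adjusted p = 0.551, SE 0.25). Rps6 (0.67 (adjusted p = 0.736, SE 0.27)), Rpl21 (0.77 (adjusted p = 0.781, SE 0.32)) and Rps16 (0.63 (adjusted p = 0.794, SE 0.28)) followed on the higher side.

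**Figure D5:**
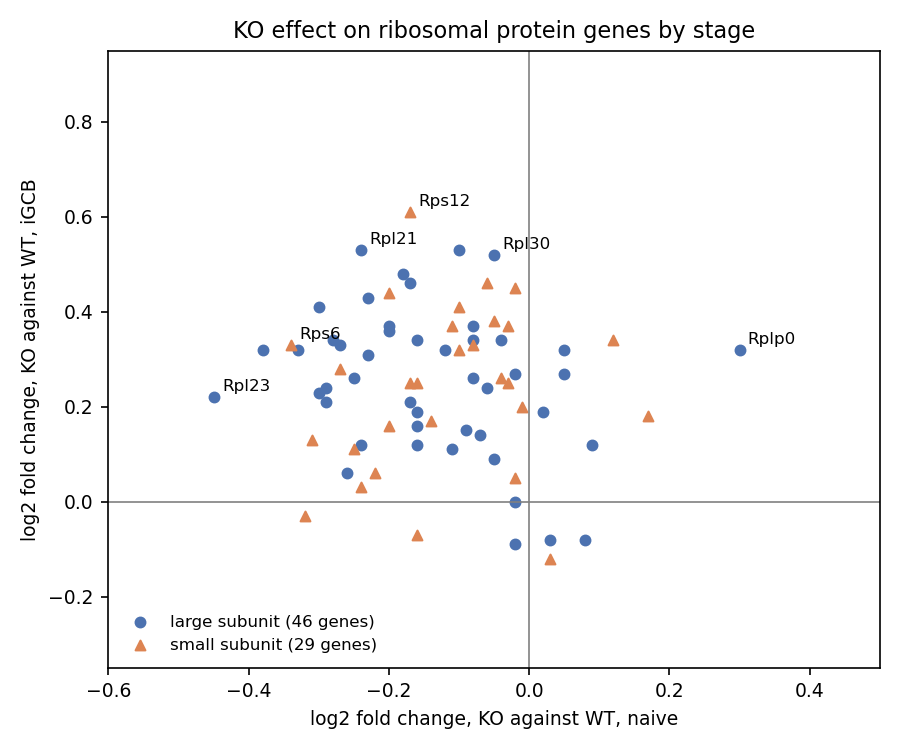
Log2 fold change of KO against WT in naive cells (x axis) and in iGCB cells (y axis) for 75 members with a mean of at least 32 CPM, as blue circles (large subunit) and orange triangles (small subunit). Most points lie left of 0 on the x axis and above 0 on the y axis, with Rps12 at 0.61 in iGCB cells. No point passed the threshold in either stage.

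Several members have a like-named relative. Rps27l, a p53 target in human cells, went from 15.3 ± 7.68 CPM (SD, n = 2) in naive WT to 99.4 ± 25.2 CPM (n = 3) in iGCB WT, a log2 fold change of 2.69 (adjusted p = 0.000122, SE 0.36), beside 1.88 (adjusted p = 0.00186, SE 0.38) for Rps27. Without naive WT 1 the Rps27l value was 3.33. Per length, the Rps27l level was 199 ± 50.6 CPM per kb in iGCB WT against 1711 ± 801 for Rps27. Rpl22l1 rose by 2.12 (adjusted p = 0.00238, SE 0.45) and Rpl22, whose loss in mice impairs alpha-beta T cell development, by 1.20 (adjusted p = 0.00317, SE 0.27). Per length they stood at 134 ± 68.5 and 869 ± 300.2 CPM per kb in iGCB WT. In naive cells Rpl22l1 was higher in the second library of each genotype (13 and 21.1 CPM in WT, 12.4 and 23.8 in KO), unlike most members. Rpl7l1 rose by 1.25 and Rpl7 by 1.97 on the log2 scale in WT.

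The other relatives were near the detection limit. Rpl36al was under 5 CPM in every library, against 97.3 to 578 CPM for Rpl36a, and exons of Gm49383 overlap its own. Rpl39l, known from male germ cells, and Rpl3l, known from striated muscle, were under 1 CPM in every library. Rpl39l rose in KO cells at 4.57 (adjusted p = 0.0308, SE 1.60) from naive levels of 0.0326 and 0 CPM. These are counts of 2 and 0, so the size of this fold is uncertain. Rpl39l did not pass the threshold without iGCB KO 2 or iGCB KO 3, and its value was 3.80 without naive KO 2. Rpl32l, Rpl6l and Rps4l are annotated as pseudogenes. Rpl32l had the largest fold of all members in WT, 4.16 (adjusted p = 0.00189, SE 0.84), at 0.203 and 0.126 CPM in naive and 1.64, 1.89 and 5.53 CPM in iGCB libraries. Without iGCB WT 3 its log2 fold change was 3.39.

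The 4 X-linked members, Rpl10, Rpl36a, Rpl39 and Rps4x, rose by 1.99, 1.67, 1.65 and 1.38 on the log2 scale in WT. Rpl10, a late-joining protein of the large subunit, had 352 and 237 CPM in WT and 346 and 254 CPM in KO naive cells, and 972, 1042 and 1489.8 CPM in WT and 1074, 1297 and 933 CPM in KO iGCB cells. The female naive libraries were the higher ones in both genotypes, as for most autosomal members.

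Core ribosomal genes with other names were read in the same way. Rack1, a scaffold on the small subunit, had 561 and 423 CPM in WT and 569 and 401 CPM in KO naive cells, and 1692, 1743 and 2069 CPM in WT and 2309, 2724 and 2095 CPM in KO iGCB cells and a stage change of 1.90 (adjusted p = 6.69e-05, SE 0.23) in WT. Fau, which encodes Rps30 fused to a ubiquitin-like protein, had 520.0 and 369 CPM in WT and 414 and 334 CPM in KO naive cells, and 415, 506 and 566 CPM in WT and 622, 875 and 628 CPM in KO iGCB cells and did not pass the threshold in WT (0.16 (adjusted p = 0.57, SE 0.23)), while in KO cells it rose by 0.92 (adjusted p = 0.00635, SE 0.23) and Rack1 by 2.29 (adjusted p = 2.28e-05, SE 0.23). KO against WT passed the threshold for neither gene at either stage, with iGCB values of 0.52 (Fau) and 0.37 (Rack1).

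Lists of related genes were counted in the same way. Over all genes tested, 24.7% were higher and 31.7% lower in iGCB than in naive WT cells, with a median of -0.25. Of 21 translation factors and other genes known for TOP mRNAs, 16 rose and 0 fell in WT (median 0.84), among them Eef1b2 (2.27 (adjusted p = 4.13e-05, SE 0.26)), Eif3f (1.41) and Npm1 (1.29). In iGCB KO against WT 0 of 21 passed (median 0.36), against 0.343% of all genes higher and 0.923% lower. An unadjusted p under 0.05 was found for 6 of them, against 9.76% of all genes. Pabpc1, the poly(A)-binding protein, had 0.66 in this comparison (adjusted p = 0.193, SE 0.20). Of 16 measured regulators of TOP mRNAs and mTORC1, 1 rose and 5 fell in WT, with a median of -0.28, near that of all genes. Eif4ebp1, a translation repressor inhibited by mTORC1, rose by 3.12 (adjusted p = 0.000187, SE 0.44), and Tsc1 and Rptor fell by 1.10 and 1.04 on the log2 scale. Of 29 ribosome assembly genes 10 rose and 6 fell (median 0.43). Of 76 mitochondrial ribosomal protein genes 51 rose and 2 fell (median 1.06), and of 36 complex I genes 32 rose and 1 fell (median 1.91).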

How the data were processed

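RNA-seq was compared between 10 mouse libraries in 4 groups. The deposited table held raw counts per symbol. The authors counted reads with featureCounts and used the mm10 build, per the submitters' processing notes. Total RNA was extracted and mRNA libraries were made with a NEB kit, per the labels' protocols. The aligner, annotation, strand setting and versions were not given in the sources used here. Among counts of 1 to 20, 17.7% to 26.9% were odd, so counts are not independent fragments. Libraries held 33400672 to 63576147 counts.

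Positions came from GENCODE M21 (mm10), which held 96.2% of the symbols. Genes were filtered with filterByExpr (minimum count 10, 21010 kept), scaled with TMM and fitted with edgeR 4.0.16 in R 4.3.3 as 1 quasi-likelihood model with 1 term per group and 6 residual degrees of freedom. All tests were two-sided, and p-values were adjusted by Benjamini-Hochberg over the genes kept, with a threshold of 0.05. SE is the absolute log2 fold change over the square root of F. Log2 CPM used a prior count of 2. The script was tested on simulated data. DESeq2 1.42.0, other scalings, no filter, a sex term, a replicate block and leaving out libraries were alternatives.

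The members, lists, tests and naming rule were chosen with earlier results of these data known. Named were members past the threshold (up to 8 higher and 8 lower per contrast by fold) or, where none passed, the 4 higher and 4 lower with the smallest p. Also named were the 4 highest and 4 lowest per length in naive WT, relatives, X-linked members, members with known roles and up to 3 genes per list. A few genes taken by these rules are counted but not reported here by name.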

Additional observations from a re-analysis of the deposited data

How the results depend on the processing

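The stage increase kept its direction under every alternative run: 61 to 76 members were higher across them in WT or KO cells. Leaving out 1 library gave 61 to 72 higher and 0 to 2 lower in WT, with medians of 1.48 to 2.03, and 63 to 73 higher and 0 to 1 lower in KO, with medians of 1.85 to 2.36. With a sex term the medians were 2.04 in WT and 2.43 in KO. The count lower in WT was 1 with only the libraries of the contrast or a sex term and 0 with the replicate block, and the count lower in KO, 0 in the fit reported, was 1 (Rpl24) with DESeq2, with its size factors, with library size alone and with a sex term. In iGCB cells 0 members were called higher in KO, against 3 with DESeq2, 2 with only the iGCB libraries or a sex term, 1 with no low-count filter or the replicate block, and 0 to 1 when 1 library was left out, with medians of 0.11 to 0.51. In naive cells the median ran from -0.41 to 0.21 on leaving out 1 library, and was 0.03 with library size alone. Leaving out 1 naive library makes the sexes unequal between genotypes, and the median was -0.09 with a sex term or the replicate block. The median difference of KO effects ran from 0.05 to 0.63. The difference of KO effects has no value with only the libraries of 1 contrast. Leaving out 1 library changed the sign of up to 55 of the 85 members in naive KO against WT (without naive WT 1), of up to 15 in iGCB KO against WT (without iGCB WT 1) and of up to 31 in the difference (without naive WT 1). Among the named members this touched, in naive KO against WT, Rps4l (range -0.11 to 1.90), Rps14 (-0.33 to 0.67) and Rpl39l (-4.95 to 2.81), in iGCB KO against WT Rpl32l (-0.87 to 0.20), and in the difference Rpl36al (-1.52 to 0.01) and Rpl32l (-1.37 to 0.32). The mean log2 CPM of large minus that of small subunit genes was -0.89 (naive WT), -0.91 (naive KO), -0.82 (iGCB WT) and -0.84 (iGCB KO). In the same order the difference was -0.33, -0.34, -0.24 and -0.12 with medians. It was -0.27, -0.29, -0.30 and -0.27 over members of at least 32 CPM, which drops the low relatives. Leaving out 1 library, the mean difference over all members stayed between -0.95 and -0.78, with exact ranges of -0.95 to -0.83, -0.93 to -0.88, -0.85 to -0.78 and -0.86 to -0.83. The shares ran from 2.41% to 3.65%, 2.65% to 3.56%, 6.51% to 7.99% and 8.38% to 9.46% in the same order. After group means were removed, same-numbered WT and KO libraries correlated at 0.70 in naive and 0.58, -0.23 and -0.08 in iGCB cells. With 2 libraries in each naive group both numbers must give the same value, so 0.70 counts once. The numbers were therefore not taken as pairs in all groups. Same-numbered naive libraries share a sex. Depth does not limit the abundant members, and Rpl3l and Rpl39l rest on few counts.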

Other observations

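Rows named as pseudogenes of ribosomal protein genes also differed by stage. Of 318 such rows, 86 were at 0 in every library and 144 were tested. In WT cells 60 were higher and 13 lower in iGCB than in naive cells (edgeR quasi-likelihood test, median log2 fold change 1.78), and in KO cells 75 were higher and 9 lower (median 2.41). Over all genes tested 24.7% were higher and 31.7% lower in WT (median -0.25). In KO it was 24.8% and 31.4% (median -0.26). KO against WT called 0 of 144 at either stage, with medians of -0.34 in naive and 0.36 in iGCB cells. Of all genes it called 0.0143% higher and 0.0333% lower in naive cells, and 0.343% and 0.923% in iGCB cells. The pseudogene rows share sequence with their parent genes, so their counts may hold reads of the parent.

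The pseudogene row with the most counts was Rps6-ps4, at 13.5 and 8.55 CPM in WT and 11.3 and 6.12 CPM in KO naive cells, and 60.9, 68.4 and 58.8 CPM in WT and 74.2, 89.8 and 77.0 CPM in KO iGCB cells. Rpl34-ps1 was at 63.5 CPM in naive WT 1 and between 1.37 and 3.21 CPM in the other 9 libraries, while Rpl34 itself was at 168 CPM in naive WT 1 and 203 CPM in naive WT 2.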
